A study of Mus musculus with 13 samples.

Results

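The genes described are the 10 that encode H3K4 methyltransferase complex proteins: Setd1a, Setd1b, Kmt2a, Kmt2b, Kmt2c, Kmt2d, Ash2l, Wdr5, Dpy30 and Men1. They were chosen by name from 20689 genes in the deposited table of the study. Their regions are 10 gene body entries, found by gene identifier, 6 CpG islands that hold the transcription start site (TSS), and 82 entries named Enh or IS by the authors that overlap the gene body or the 5 kb upstream of it. These are 98 of 240814 regions. The names Enh and IS are not explained in the labels. ChIP-seq for H3 acetylated at lysine 14 (H3K14ac) and for the acetyltransferase KAT7, also called HBO1, was run on neurosphere cultures of neural stem and progenitor cells. These had been derived from E14.5 mouse cortices with ganglionic eminences and were taken at passage 5, day 3. Kat7 intact cells were Kat7+/+ NesCreT/+ and Kat7 deleted cells were Kat7lox/lox NesCreT/+, so both carried the Cre transgene named for nestin. Per the labels there were 4 H3K14ac libraries of intact and 3 of deleted cells, 3 KAT7 libraries of intact cells, 1 of deleted cells, and an IgG control per antibody.

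The values are merged, 1 for each antibody, and the sources used here do not say which libraries or genotype entered them. The column totals behind the values were 141734087 reads for H3K14ac and 134111848 for KAT7. A level is an RPKM, reads per kilobase of region scaled to that total, with a 95% counting interval in parentheses. No replicate stands behind any value, so there is no test, the intervals cover counting error only, and neither genotypes nor IgG were compared. A ratio is the KAT7 level over the H3K14ac level. The antibodies share no scale, so its distance from 1 compares scaled reads, not occupancy with acetylation. Neural stem markers had TSS island medians of 0.589 for H3K14ac and 0.714 for KAT7 over 6 islands, and the medians over their 9 measured gene bodies were 0.504 and 0.594. The gene body medians were 0.343 and 0.348 for 5 neuronal markers, 0.376 and 0.365 for 4 measured microglial markers, and 0.396 and 0.364 for 5 endothelial and mural markers. The neuronal medians include Dcx on chromosome X, which had the lowest values of the 5, 0.201 and 0.193. The lists were not matched for length or chromosome, so their medians are not a comparison of cell types. The bodies of Sox2 and P2ry12, which overlap another gene, are listed at 0 reads and were left out.

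Methylation of lysine 4 of histone H3 (H3K4) is written by complexes built on 6 enzymes. SETD1A and SETD1B deposit much of the trimethylation at active promoters, KMT2A and KMT2B act at subsets of promoters with the cofactor menin (Men1), and KMT2C and KMT2D are the main writers of monomethylation at enhancers. Each enzyme works with a shared core of WDR5, RBBP5, ASH2L and DPY30. The mark has a known tie to KAT7, since ING subunits of KAT7 complexes bind methylated H3K4.

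Promoter sequences are shown for the members whose TSS islands had the highest and lowest ratio or level, as far as the RefSeq promoter table (build GRCm38.p6) held them, and for Dpy30, added because its gene model starts away from its CpG island. The table held 7 of the 10 members. Each sequence is the 250 bases before a RefSeq start, 5′ to 3′ on the gene's strand, with CG dinucleotides in capitals. The positions are chr9:44881290-44881539 (minus strand) for Kmt2a, chr7:127777139-127777388 (plus) for Setd1a, chr5:25498784-25499033 (minus) for Kmt2c, and chr17:74323945-74324194 and chr17:74316434-74316683 (both minus) for the upstream and the downstream start of Dpy30.
Kmt2a: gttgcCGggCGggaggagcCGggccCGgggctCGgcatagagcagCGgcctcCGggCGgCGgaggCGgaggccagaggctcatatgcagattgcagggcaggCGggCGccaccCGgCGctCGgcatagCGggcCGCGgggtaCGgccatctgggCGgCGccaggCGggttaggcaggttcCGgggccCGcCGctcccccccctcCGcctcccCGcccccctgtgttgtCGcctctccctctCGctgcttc
Setd1a: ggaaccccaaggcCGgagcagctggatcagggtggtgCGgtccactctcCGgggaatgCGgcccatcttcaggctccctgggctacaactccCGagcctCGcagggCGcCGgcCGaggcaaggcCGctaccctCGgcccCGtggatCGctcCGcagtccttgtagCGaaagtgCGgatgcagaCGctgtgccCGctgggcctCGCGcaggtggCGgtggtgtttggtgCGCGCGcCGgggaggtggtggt
Kmt2c: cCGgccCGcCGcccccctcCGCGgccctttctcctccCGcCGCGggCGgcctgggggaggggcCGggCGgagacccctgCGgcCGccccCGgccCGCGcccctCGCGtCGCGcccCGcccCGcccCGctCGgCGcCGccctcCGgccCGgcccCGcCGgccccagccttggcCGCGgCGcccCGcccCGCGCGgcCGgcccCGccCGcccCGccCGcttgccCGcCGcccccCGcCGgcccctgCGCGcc
Dpy30 upstream start: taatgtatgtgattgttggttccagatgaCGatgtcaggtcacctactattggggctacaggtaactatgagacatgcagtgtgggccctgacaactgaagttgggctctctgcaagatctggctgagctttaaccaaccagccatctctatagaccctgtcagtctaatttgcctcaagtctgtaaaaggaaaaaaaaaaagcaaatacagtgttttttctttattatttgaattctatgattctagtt
Dpy30 downstream start: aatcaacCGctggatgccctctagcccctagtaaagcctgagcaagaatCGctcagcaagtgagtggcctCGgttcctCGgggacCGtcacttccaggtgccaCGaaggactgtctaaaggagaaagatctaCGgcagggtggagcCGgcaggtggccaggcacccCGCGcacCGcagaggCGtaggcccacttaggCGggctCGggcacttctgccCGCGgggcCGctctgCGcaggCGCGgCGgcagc

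The printed stretches hold 29 CG in Kmt2a, 25 in Setd1a, 48 in Kmt2c, 1 at the upstream start of Dpy30 and 21 at its downstream start. Over the whole 300-base entries, which add 50 bases after the start, Kmt2c had 56 CG, more than 99.8% of 32851 promoters, and the upstream Dpy30 entry had 1, more than 5.43%. The GC box GGGCGG, searched on both strands with overlapping matches counted, occurred 12 times in the Kmt2c entry and 5 times in that of Kmt2a. It had 4 matches at Kmt2d, 2 at Wdr5 and 1 at Men1, and no match at Setd1a or at the entries shown for Dpy30. It occurs in 35.7% of all promoters of that length. CCAAT (37.4% of promoters) was found at Men1 and at the upstream Dpy30 start. CACGTG (7.15%), TATAAA (13.6%) and CCGGAAG (8.86%) had no match in any member's entry, which says only that these letters are not in the window.

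Over gene bodies, H3K14ac was below the median for the gene's length in 9 of the 10 members, while KAT7 lay on both sides of its median. The H3K14ac median of the members was 0.327, against 0.381 for 15774 autosomal gene bodies, and the KAT7 median was 0.401 against 0.399. Kmt2c was the exception for H3K14ac. The interval of H3K14ac lay wholly below the class median in 9 of 10 members, beside 24.9% of all gene bodies and 29.8% of the 11576 in the members' range of length. Against gene bodies of like length (within 1.5 times either way), 6 of 10 lay below the 10th percentile for H3K14ac, where 9.83% of all gene bodies lie. The count was 4 with gene bodies that overlap another kept in the background. For KAT7, 4 of 10 lay below the 50th percentile. None of the 10 gene bodies shares bases with another, and the authors' expression mark is Other for each of them, which leaves them out of the Top and Bottom classes.

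Setd1a (chromosome 7, 127777389 to 127800122) had a gene body H3K14ac level of 0.321 (0.302 to 0.341) and a KAT7 level of 0.390 (0.368 to 0.413). Setd1b (chromosome 5, 123142217 to 123168630) had an H3K14ac RPKM of 0.289 (0.272 to 0.307), the lowest of the 10, and a KAT7 RPKM of 0.367 (0.348 to 0.388). In these genes of the SET1 enzymes H3K14ac sat at the 6.52 and 1.96 percentile at like length, and KAT7 at the 43.7 and 19.3 percentile, so Setd1b was low in both columns.

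Kmt2a (chromosome 9, 44803355 to 44881274) had an H3K14ac RPKM of 0.347 (0.336 to 0.358) and a KAT7 RPKM of 0.413 (0.400 to 0.425) over its body. Kmt2b (chromosome 7, 30568855 to 30588726) had 0.315 (0.295 to 0.336) and 0.404 (0.380 to 0.429). Men1 (chromosome 19, 6334979 to 6340894), the shortest member with 5916 bases, had 0.315 (0.278 to 0.355) for H3K14ac and the highest KAT7 of the members, 0.458 (0.412 to 0.507). These genes of the MLL1/2 group lay at the 5.62, 5.60 and 9.04 percentile for H3K14ac and, in the same order, at the 69.0, 61.5 and 87.3 percentile for KAT7.

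Kmt2c (chromosome 5, 25271794 to 25498783), the longest member with 226990 bases, had an H3K14ac RPKM of 0.398 (0.392 to 0.405) and a KAT7 RPKM of 0.424 (0.417 to 0.431). Its paralogue Kmt2d (chromosome 15, 98831669 to 98871205) had 0.313 (0.299 to 0.328) and 0.386 (0.369 to 0.403). Kmt2c was thus higher than Kmt2d by a factor of 1.27 (1.21 to 1.34) in H3K14ac and 1.10 (1.05 to 1.15) in KAT7. Kmt2c lay at the 52.2 percentile for H3K14ac and the 91.2 percentile for KAT7 among 649 gene bodies of like length, and Kmt2d at the 2.01 and 34.7 percentile among 3080.

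The core subunit genes were closer to each other. Ash2l (chromosome 8, 25816870 to 25847670) had an H3K14ac RPKM of 0.344 (0.327 to 0.362) and a KAT7 RPKM of 0.380 (0.362 to 0.400), Wdr5 (chromosome 2, 27515147 to 27536535) had 0.342 (0.321 to 0.363) and 0.397 (0.375 to 0.421), and Dpy30 (chromosome 17, 74299474 to 74323944) had 0.333 (0.314 to 0.353) and 0.410 (0.388 to 0.432). Their H3K14ac percentiles, 15.7 for Ash2l, 18.9 for Wdr5 and 11.9 for Dpy30, were above those of the enzyme genes other than Kmt2c. In the order of the H3K14ac levels, the intervals separated 2 of 9 neighbouring pairs, Kmt2c from Kmt2a at the top and Kmt2d from Setd1b at the bottom. No neighbouring pair was separated in the order of the KAT7 levels.

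**Figure D1:**
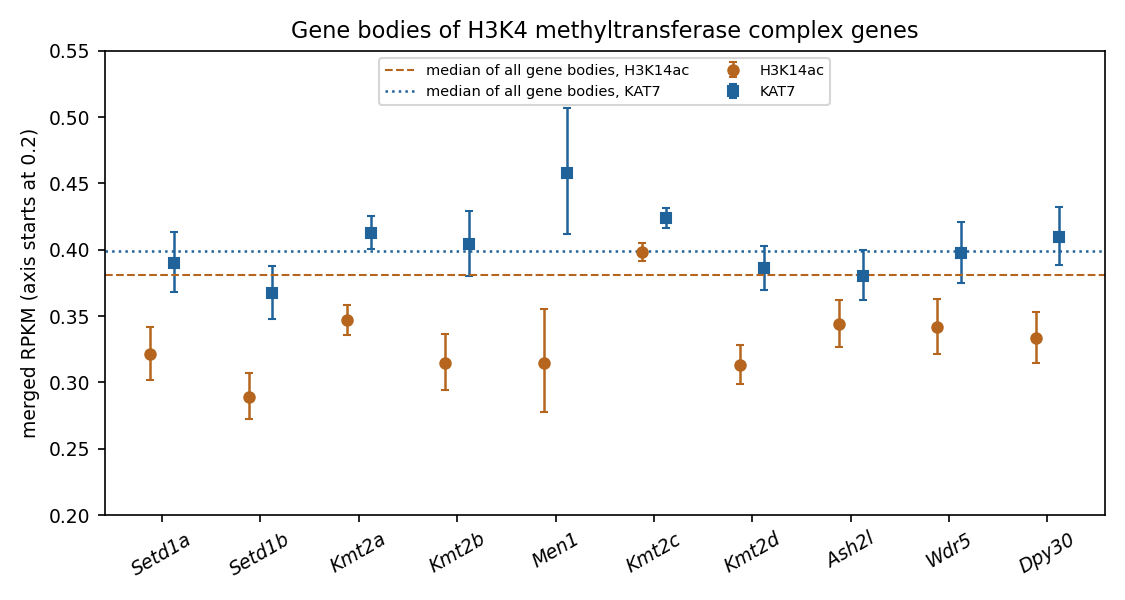
Merged RPKM over the gene body (vertical axis, starting at 0.2) of the 10 genes, H3K14ac as circles and KAT7 as squares, with 95% counting intervals; lines mark the medians of 15774 autosomal gene bodies, 0.381 for H3K14ac and 0.399 for KAT7. H3K14ac lies below its median in 9 of 10 genes, and Kmt2c, at 0.398, lies above it.

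The gene body ratio of KAT7 to H3K14ac was above 1 with its interval in 10 of 10 members, as in 34.2% of all gene bodies and 40.3% of those in the members' range of length. The median was 1.22, beside 1.05 for all. A ratio was called low at 0.8 or less and high at the inverse of 0.8 or more. By this rule 3 of 10 members were high, beside 7.53% of all gene bodies and 4.29% of those in their range of length. These were Men1 with 1.45 (1.24 to 1.71), Kmt2b with 1.28 (1.17 to 1.40) and Setd1b with 1.27 (1.17 to 1.38). No member was called low, beside 2.22% of all gene bodies and 0.259% of those in the range of length, and no interval lay below 1, as 9.06% did over all gene bodies. Kmt2d had 1.23 (1.16 to 1.31), Dpy30 1.23 (1.14 to 1.33), Setd1a 1.22 (1.12 to 1.32), Kmt2a 1.19 (1.14 to 1.24), Wdr5 1.16 (1.07 to 1.27), Ash2l 1.11 (1.03 to 1.19) and Kmt2c 1.06 (1.04 to 1.09).

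Long gene bodies have a narrow range of ratios, so a small ratio can rank high. Kmt2c, with the lowest ratio of the members, was at the 92.9 percentile of gene bodies of its length, and Kmt2a was at the 98.9 percentile. In all, 8 of 10 members lay above the 90th percentile at like length, where 9.6% of all gene bodies lie. Wdr5 (81.4) and Ash2l (66.6) did not. None of the 9 neighbouring pairs in the order of ratios was separated by its interval. With the ratio set against the class median in place of 1, Men1 alone was called high, with 1.39.

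**Figure D2:**
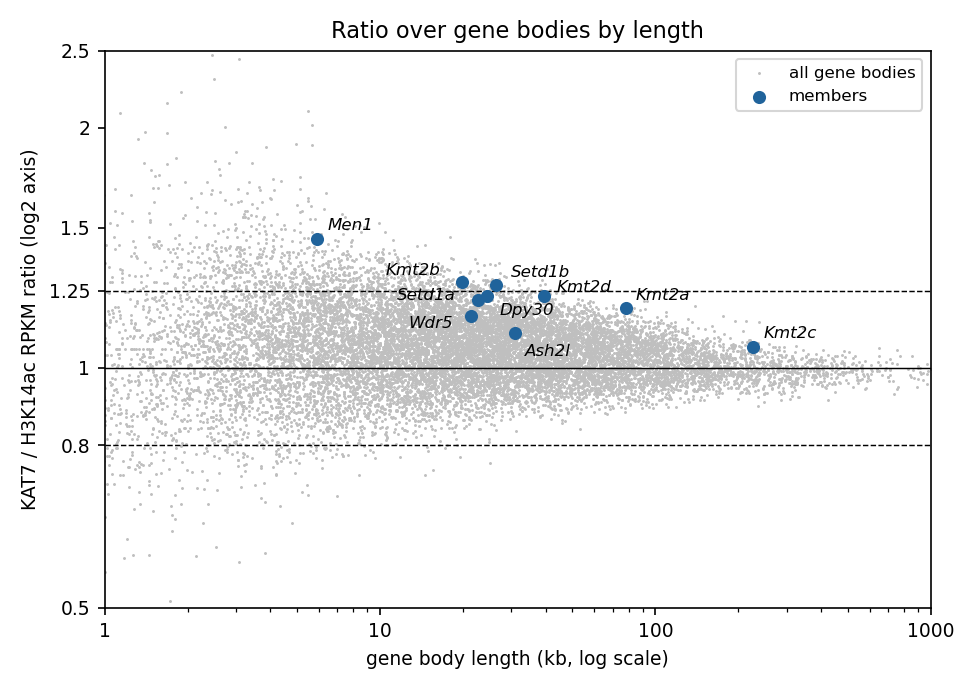
Gene body ratio of KAT7 to H3K14ac RPKM (vertical log2 axis) against gene body length (horizontal log axis, kb), with all autosomal gene bodies in grey and the 10 members in blue; 782 of 15774 gene bodies fall outside the axes. The solid line marks 1 and the dashed lines the low and high calls; the members sit between 1.06 (Kmt2c) and 1.45 (Men1), on the upper side of gene bodies of their length.

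At CpG islands that hold the TSS the members went apart. Of the 6 islands, 3 had a high ratio (34.2% of 12875 islands near a TSS) and 2 a low one (21.4%), shares that so few islands cannot set apart from the background. The interval lay above 1 in 2 islands (14.1% of all) and below 1 in 2 (7.43%). Kmt2a (44880812 to 44882280) had an island H3K14ac level of 0.500 (0.408 to 0.606) and a KAT7 level of 0.777 (0.659 to 0.910), a ratio of 1.55 (1.20 to 2.01). Its KAT7 level was the highest of the 6, at the 96.9 percentile of islands of like length, with H3K14ac at the 65.2 percentile. The island covers the Kmt2a sequence printed above.

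Setd1a and Kmt2c had the opposite order of the antibodies. The Setd1a island (127776587 to 127777720) had an H3K14ac RPKM of 0.529 (0.423 to 0.655) and a KAT7 RPKM of 0.329 (0.244 to 0.434), a ratio of 0.622 (0.429 to 0.892) at the 4.29 percentile. The Kmt2c island (25497707 to 25500021) had 0.564 (0.486 to 0.651) and 0.403 (0.335 to 0.480), a ratio of 0.714 (0.564 to 0.901) at the 4.41 percentile. It also holds the TSS of 4831440E17Rik, which runs the other way, so its reads belong to both starts.

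The Setd1b island (123141680 to 123143197) had an H3K14ac RPKM of 0.405 (0.324 to 0.499) and a KAT7 RPKM of 0.546 (0.449 to 0.657), with a ratio of 1.35 (1.01 to 1.81). The Wdr5 island (27515043 to 27515616) had 0.480 (0.341 to 0.656) and 0.573 (0.416 to 0.769), with a ratio of 1.19 (0.757 to 1.88). The Kmt2b island (30588725 to 30589572) ends at the start site and was the lowest in both columns, with an H3K14ac RPKM of 0.200 (0.128 to 0.297) and a KAT7 RPKM of 0.282 (0.193 to 0.398) from 24 and 32 reads. Both values lay near the 5th percentile of islands of like length (4.37 and 4.87), and the ratio of 1.41 (0.804 to 2.50) could not be told from 1. Other Kmt2b islands lie downstream. That at 185 bases (30588280 to 30588541) had an H3K14ac RPKM of 0.919 (0.637 to 1.28) and a KAT7 RPKM of 0.657 (0.417 to 0.986), at the 95.2 and 75.3 percentile. That at 1699 bases (30586767 to 30587027) had 0.488 (0.289 to 0.772) and 1.00 (0.699 to 1.40), a ratio of 2.05 (1.13 to 3.85). Of the 5 neighbouring pairs in the order of island levels, 1 was separated in H3K14ac, Setd1b over Kmt2b, and 1 in KAT7, Setd1b over Kmt2c.

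The 2 genes of each enzyme pair were compared in 8 ways, by the quotient of their ratios over gene bodies, TSS islands and Enh entries that hold the TSS. Setd1a and Setd1b did not separate over gene bodies, with a quotient of 0.956 (0.850 to 1.08), but did at the islands, with 0.461 (0.287 to 0.739). At the Setd1a island KAT7 was 0.603 (0.423 to 0.849) times that of Setd1b and H3K14ac was 1.31 (0.959 to 1.78) times, an interval that holds 1. Kmt2c and Kmt2d separated over gene bodies, with a quotient of 0.863 (0.806 to 0.925). Kmt2a and Kmt2b did not separate over gene bodies (0.927, 0.838 to 1.02), at their Enh entries (1.22, 0.879 to 1.69) or at their islands (1.10, 0.585 to 2.06), but their island levels differed: Kmt2a was 2.50 (1.59 to 4.08) times Kmt2b in H3K14ac and 2.76 (1.87 to 4.17) times in KAT7. The Enh entries that hold the start were separated for Setd1a against Setd1b, with 0.731 (0.535 to 0.994), and not for Kmt2c against Kmt2d, with 0.761 (0.562 to 1.03). The Setd1b entry has 10660 bases, against 1829 at Setd1a, and also covers a neighbouring gene, so these are not like regions. At the Enh entries of the other pair, Kmt2c had 0.606 (0.486 to 0.756) times the KAT7 of Kmt2d and 0.796 (0.650 to 0.976) times its H3K14ac. The Kmt2c Enh entry also covers the start of 4831440E17Rik, and that of Kmt2b (30587868 to 30590042) overlaps Zbtb32 (30589681 to 30592942).

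Within a gene, island and body were compared for the 6 members. The islands reach into the bodies, by 1 base at Kmt2b and by 331 (Setd1a) to 1076 bases (Kmt2c) at the others. A read can therefore count in both, which the intervals do not allow for. At Setd1a the island ratio was 0.512 (0.350 to 0.742) times the gene body ratio and at Kmt2c 0.671 (0.530 to 0.848) times, so in both genes the antibodies changed order between the start and the body. At Kmt2a the island ratio was 1.31 (1.01 to 1.70) times that of the body. Setd1b (1.06, 0.785 to 1.44), Kmt2b (1.10, 0.622 to 1.96) and Wdr5 (1.03, 0.645 to 1.63) were not separated. KAT7 at the Setd1a and Kmt2c islands was close to its level in their own bodies, 0.843 (0.622 to 1.12) and 0.9504 (0.790 to 1.13) times, while H3K14ac was 1.65 (1.30 to 2.06) and 1.42 (1.22 to 1.64) times. At Kmt2b both antibodies were lower at the island that holds the start than in the body. The island to body quotient was 0.635 (0.405 to 0.951) in H3K14ac and 0.697 (0.474 to 0.990) in KAT7. The downstream Kmt2b islands are not part of this comparison.

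For the other 4 members the start given in the file lies outside a CpG island. Kmt2d has one 68 bases upstream (98871273 to 98872361) with an H3K14ac RPKM of 0.811 (0.675 to 0.966) and a KAT7 RPKM of 0.706 (0.576 to 0.856), at the 94.96 and 93.7 percentile, so it was high in both. The Men1 island (6334996 to 6335806) starts 17 bases downstream and had 0.479 (0.361 to 0.624) and 0.488 (0.365 to 0.638). RefSeq gives Men1 starts at 34 and 60 bases downstream that lie inside it.

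At Ash2l and Dpy30 the nearest island lies far inside the gene as the file draws it. That of Ash2l (25840324 to 25840821), 6849 bases downstream, had an H3K14ac RPKM of 0.568 (0.406 to 0.773) and a KAT7 RPKM of 0.465 (0.316 to 0.660). That of Dpy30 (74315984 to 74316613), 7331 bases downstream, had 0.482 (0.349 to 0.650) and 0.415 (0.289 to 0.577). For Dpy30 the RefSeq table places further starts at 7511, 7550 and 7733 bases downstream, each inside this island, and the first of these is the downstream sequence printed above.

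Summed over their Enh and IS entries, the members had a median ratio of 0.929, beside 1.05 for the same sums in 16005 genes, and lay on both sides of 1. No member was called high, beside 22.7% of genes, and 3 of 10 were called low, beside 12.8%. These were Ash2l with 0.652 (0.514 to 0.823), Kmt2c with 0.681 (0.568 to 0.815) and Setd1a with 0.687 (0.555 to 0.850). Kmt2a had the highest ratio, 1.23 (1.08 to 1.41), and was the 1 member with its interval above 1 (15.6% of genes), while 4 lay below 1 (7.75%), the fourth being Setd1b with 0.915 (0.840 to 0.996). The Ash2l value rests on 3 entries, of which the Enh entry over its inner island (25839975 to 25841860), named after its values were seen, had an H3K14ac RPKM of 0.595 (0.506 to 0.695) and a KAT7 RPKM of 0.364 (0.293 to 0.446). Another of the 3, at -4297 bases, lies inside the neighbouring gene Kcnu1. The Kmt2c sum includes an Enh entry (25497677 to 25500334) that also covers the start of 4831440E17Rik, at 25499797. Enh and IS entries overlap each other, so a read can count in both.

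The number of entries ran from 1 at Wdr5 to 29 at Setd1b, of 14 Enh and 68 IS entries in all. Of the 29 at Setd1b, an Enh entry of 10660 bases (123133169 to 123143828) reaches beyond the 5 kb upstream and covers the unnamed gene 74366 (123138497 to 123141563). This entry had an H3K14ac RPKM of 0.511 (0.476 to 0.548) and a KAT7 RPKM of 0.442 (0.408 to 0.478), and inside it an island 2896 bases upstream of Setd1b (123138697 to 123139321) had 1.72 (1.46 to 2.01) and 0.717 (0.547 to 0.923). That H3K14ac level was at the 99.9 percentile of islands, and whether it belongs to Setd1b or to its neighbour cannot be told apart here. The other Setd1b sums include these upstream entries.

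**Figure D3:**
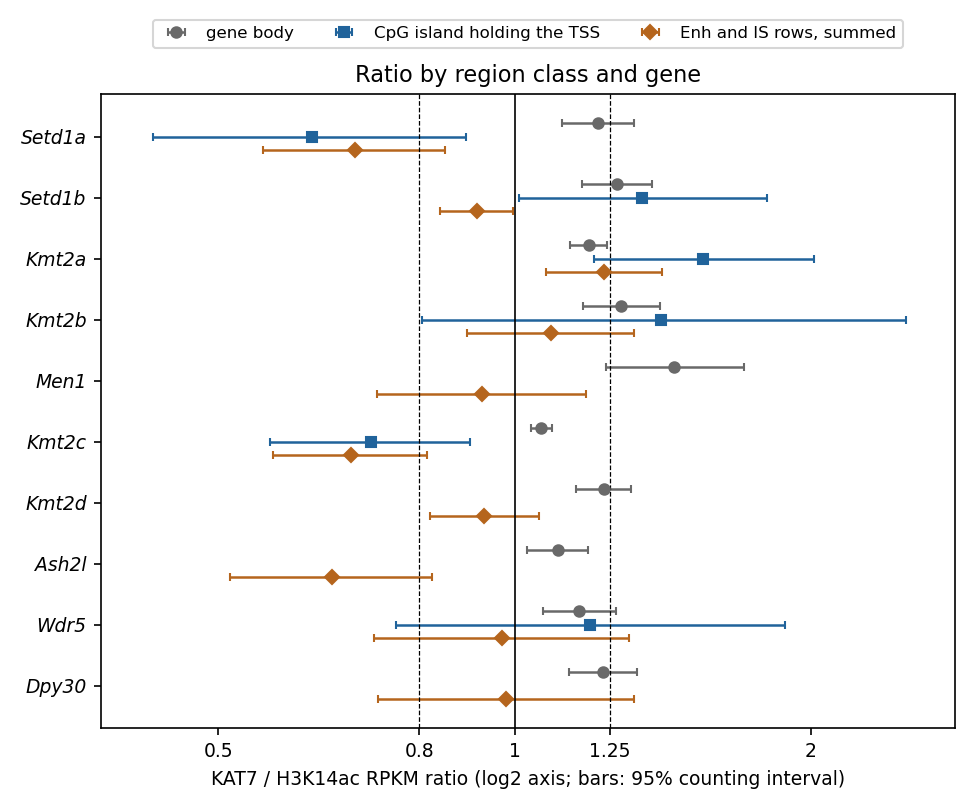
Ratio of KAT7 to H3K14ac RPKM (horizontal log2 axis) for each gene over its gene body (circles), the CpG island holding its TSS (squares, 6 genes) and its summed Enh and IS entries (diamonds), with 95% counting intervals; lines mark 1 and the low and high calls. Gene bodies lie at 1.06 to 1.45, and the summed entries of Setd1a, Kmt2c and Ash2l lie below 0.8.

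Single entries named here are those with the highest lower bound of either antibody in a gene, besides a few set beside them after their values were seen, so that the places of the maxima are chosen values and are given as a description. At Kmt2d, the IS entry centred at -564 bases from the start (98871674 to 98871864) had the highest H3K14ac of all 82 entries, 2.79 (2.19 to 3.49) from 75 reads, and a KAT7 level of 0.667 (0.389 to 1.07) from 17. Its ratio was 0.240 (0.133 to 0.410). The IS entry at -1016 bases (98872149 to 98872292) had the reverse, an H3K14ac RPKM of 0.493 (0.237 to 0.907) and a KAT7 RPKM of 1.46 (0.970 to 2.11), a ratio of 2.96 (1.40 to 6.83).

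At Kmt2a, the KAT7 maximum was at -449 bases from the start (44881635 to 44881811), with 1.61 (1.14 to 2.21) from 38 reads against 0.762 (0.459 to 1.19) for H3K14ac from 19. The H3K14ac maximum was 475 bases downstream (44880744 to 44880853), with 2.52 (1.80 to 3.45) against 1.37 (0.836 to 2.11) for KAT7. The KAT7 intervals of these entries overlap, so its level was not separated between them. Both levels of the downstream entry were high for IS entries of that length near a TSS, at the 99.7 and 96.3 percentile.

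At Kmt2c the IS entry just inside the gene, centred 224 bases downstream (25498347 to 25498770), had 0.984 (0.749 to 1.27) for H3K14ac from 59 reads and 0.335 (0.202 to 0.523) for KAT7 from 19. The highest KAT7 of Kmt2c was at -758 bases (25499401 to 25499681), with 0.586 (0.367 to 0.887) beside 0.731 (0.489 to 1.05) for H3K14ac. Setd1a had 0.560 (0.402 to 0.759) and 0.231 (0.132 to 0.375) in the IS entry next to its start (127776868 to 127777385), an entry named after its values were seen. The highest lower bound of H3K14ac at Setd1a was 551 bases downstream (127777796 to 127778085), with 0.684 (0.454 to 0.988) beside a KAT7 level of 0.516 (0.315 to 0.797). That of KAT7 was 21808 bases downstream (127799051 to 127799343), with 0.613 (0.393 to 0.912) beside 0.411 (0.239 to 0.658) for H3K14ac. Their ratios, 0.755 (0.403 to 1.39) and 1.49 (0.769 to 2.96), could not be told from 1. At Men1 the highest H3K14ac was 1.37 (0.824 to 2.14), centred 1928 bases downstream, and the highest KAT7 was 0.919 (0.535 to 1.47) near the end of the gene, both with ratios that could not be told from 1. Of the 47 IS entries in the authors' class near a TSS, 15 were high, beside 38% of such entries in all, and 14 low, beside 29.9%. Of the 21 far from a TSS, 8 were high, beside 31.9%, and 6 low, beside 34.6%. These shares are near the background, and single entries hold a median of 13 H3K14ac and 13.5 KAT7 reads.

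At Setd1b the entry with the highest H3K14ac lay at -2211 bases (123139951 to 123140062), inside the neighbouring gene, with 1.72 (1.13 to 2.50) beside a KAT7 level of 0.806 (0.417 to 1.41), and that with the highest KAT7 lay at -407 bases, with 1.19 (0.759 to 1.76), close to the 1.15 (0.735 to 1.71) at -3142 bases. At Kmt2b the highest lower bound of H3K14ac was 559 bases downstream (30587866 to 30588468), with a level of 0.703 (0.537 to 0.905), while an entry of fewer reads at 4909 bases had 0.822 (0.425 to 1.44). That of KAT7 was 2024 bases downstream (30586626 to 30586778), with 1.03 (0.638 to 1.57). At Ash2l 1 entry at -4297 bases (25851910 to 25852024) was highest in both columns, where the H3K14ac RPKM was 0.990 (0.566 to 1.61) and the KAT7 RPKM 0.850 (0.453 to 1.45). This entry lies inside the neighbouring gene Kcnu1 (25849623 to 25937934), and to which gene it belongs cannot be told apart here. At Wdr5 a single Enh entry over the start (27514306 to 27515691) held 0.494 (0.401 to 0.603) of H3K14ac and 0.479 (0.385 to 0.590) of KAT7. Around the inner island of Dpy30 the Enh entry (74315827 to 74316805) held 0.555 (0.438 to 0.694) and 0.534 (0.416 to 0.674), and neither ratio could be told from 1. The highest lower bound of H3K14ac at Dpy30 was in an IS entry centred 7761 bases downstream (74316129 to 74316237). It had 0.915 (0.500 to 1.53) beside a KAT7 level of 0.759 (0.379 to 1.36).

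**Figure D4:**
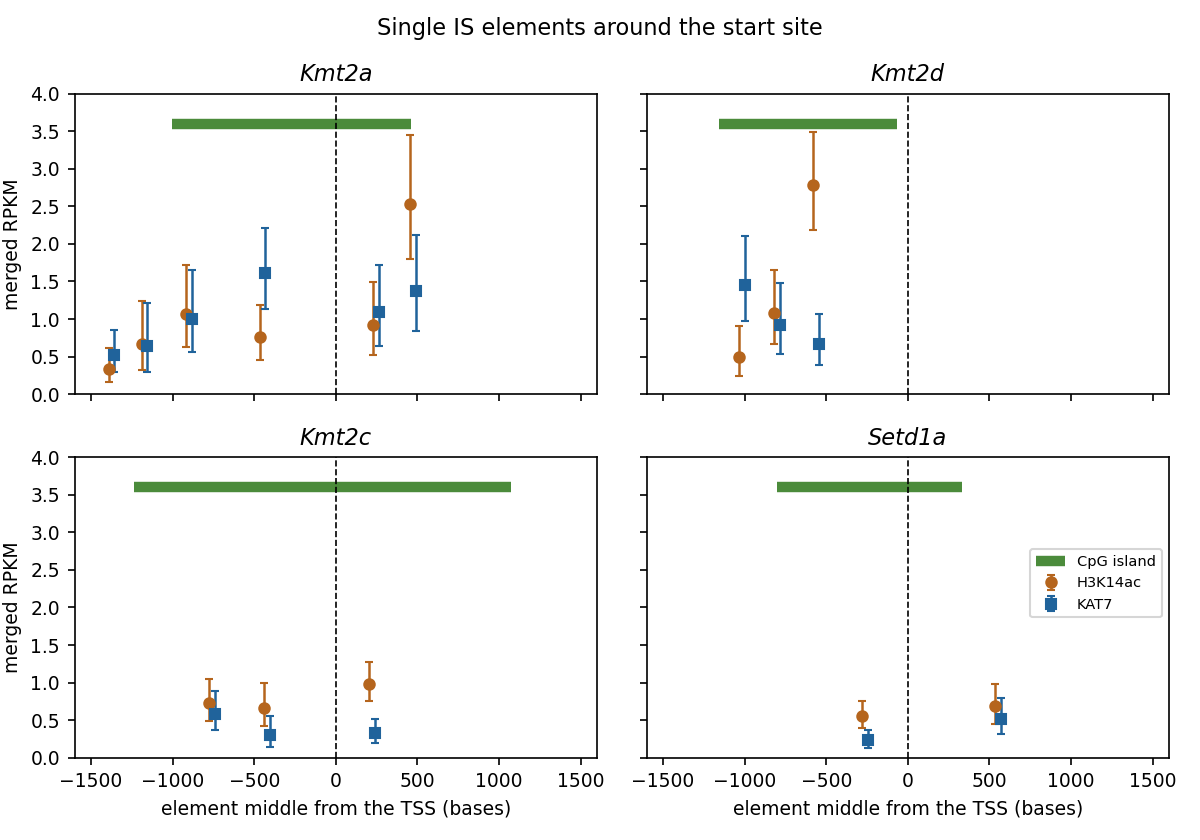
Merged RPKM (vertical axis) of single IS entries by the distance of their middle from the TSS (horizontal axis, bases, negative upstream) at Kmt2a, Kmt2d, Kmt2c and Setd1a, H3K14ac as circles and KAT7 as squares with 95% counting intervals; the bar marks the CpG island and the 2 antibodies are offset sideways. H3K14ac peaks at 2.79 in Kmt2d and 2.52 in Kmt2a, where KAT7 is 0.667 and 1.37.

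Windows of 2001 bases before the start and after the end of the gene hold reads for the 4 plus-strand members alone. Before the start, Setd1a had an H3K14ac RPKM of 0.441 (0.367 to 0.525) and a KAT7 RPKM of 0.339 (0.273 to 0.417), and Setd1b 0.536 (0.454 to 0.629) and 0.425 (0.351 to 0.511). Wdr5 had 0.416 (0.345 to 0.499) and 0.455 (0.378 to 0.543), and Men1 0.374 (0.306 to 0.452) and 0.369 (0.300 to 0.449). Setd1a (0.769, 0.581 to 1.02) and Setd1b (0.793, 0.616 to 1.02) were called low, 2 of 4 beside 5.17% of 9809 windows, and none was high (21.7%), but every one of the 4 intervals held 1. The Setd1b window (123140217 to 123142217) overlaps the neighbouring gene 74366, which ends at 123141563. After the end, the ratio was 1.44 (1.09 to 1.91) at Setd1a, 1.33 (0.992 to 1.80) at Men1, 1.32 (0.988 to 1.76) at Wdr5 and 1.22 (0.922 to 1.61) at Setd1b. Of these, 3 of 4 were high, beside 18.5% of 9774 windows, and none was low (5.45%). Only the Setd1a interval lay above 1, and the others held 1.

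Of 22 further genes of the pathway, 19 had a gene body ratio above 1, beside 65.9% of all gene bodies, with a median of 1.12, or 1.13 without Pagr1a. The high call was reached by 1 of the 22, beside 7.53% of all gene bodies. This was Cxxc1, the CpG-binding subunit of the SET1 complexes, with 1.30 (1.09 to 1.56). Rbbp5, which completes the shared core, had an H3K14ac RPKM of 0.359 (0.341 to 0.378) and a KAT7 RPKM of 0.418 (0.398 to 0.439), a ratio of 1.16 (1.083 to 1.251). Pagr1a had 2 and 1 reads over its body, too few for a ratio. Among the 8 further subunits on autosomes with more than 100 reads, 3 were below the 10th percentile of H3K14ac at like length (Cxxc1, Psip1 and Paxip1) and 5 were above the 90th percentile of the ratio. Over all gene bodies these shares are 9.83% and 9.6%.

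The same counts were 1 and 0 of 5 for other reported H3K4 methyltransferases and 0 and 1 of 4 for H3K4 demethylases. They stand beside 6 and 8 of 10 for the members and 9.83% and 9.6% of all gene bodies. Setd7 had the highest ratio of the 5, 1.13 (1.06 to 1.20), and Smyd1, a muscle gene, the lowest, 0.974 (0.920 to 1.03). Of the demethylases, Kdm5b had the highest, 1.15 (1.10 to 1.20), and Kdm1b the lowest, 1.05 (0.989 to 1.11). These lists are small and the differences between them were not tested. At TSS islands the 16 measured genes ran from 0.602 (0.408 to 0.879) at Kdm1b to 3.17 (1.83 to 5.74) at Paxip1, a subunit of the KMT2C and KMT2D complexes, whose island had an H3K14ac RPKM of 0.136 (0.0805 to 0.215) and a KAT7 RPKM of 0.431 (0.324 to 0.562). Of these 16 islands, 6 were high, beside 34.2% of all islands near a TSS, and 5 low, beside 21.4%. Their median ratio was 1.05. Hcfc1 had the lowest ratio among the further subunits at islands, 0.608 (0.436 to 0.841), and lies on chromosome X, which the background leaves out.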

How the data were processed

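ChIP-seq reads of H3K14ac and KAT7 had been merged by the authors into 1 column of read counts and 1 of RPKM for each antibody, per the file headers. The submitters' processing notes name featureCounts, deepTools, Picard, SAMtools and Bowtie2 and the build mm10. They give no version, role or order, and SC and gc in the column names are not explained, so whether reads were corrected before counting is unknown. The counts are whole numbers as deposited. RPKM as deposited equals the count over the region's end minus start and 1 read total per column (141734087 and 134111848) in 100% of regions with reads, within a relative tolerance of 1e-06.

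Levels carry exact Poisson and ratios exact binomial or conditional 95% intervals (Python 3.11.15, scipy 1.17.1, pandas 2.3.3). The Poisson and binomial intervals were tried on simulated Poisson counts, which share their model, so this checks the calculation alone. The conditional intervals were not tried. Reads are not independent molecules, so intervals cover counting error only. Backgrounds were autosomal regions that share no base with another of their class, with at most 5 RPKM and a mean of both RPKM values of at least 0.1. The summed Enh and IS entries were set beside 16005 autosomal genes with reads in both columns. There the limit of 5 RPKM held for single entries, without the overlap rule or the minimum of 0.1. Members were not filtered; 81 of their 82 Enh and IS entries pass that minimum. A percentile is the share of background regions within 1.5 times the length that are lower. Single entries named are, per member, those with the highest lower bound in either column, besides those said to be chosen later; the other pathway genes named are the highest and lowest ratio of each list, and Rbbp5. Minus-strand promoter and post-end entries have a length of -1999 and no reads, and were not used. Gene symbols and starts came from RefSeq (GRCm38.p6), which named 96.7% of 20689 genes and shares a start or end with 67.6% of those. The members and lists were chosen with earlier results of these data known. The planned limma comparison of genotypes needs 1 column per library and was not run. Alternatives tried were the filter, overlapping regions, the length band, the scale between antibodies, the call rule and the upstream reach.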

Additional observations from a re-analysis of the deposited data

How the results depend on the processing

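Of the recomputed summary values, 43 stayed within the band set for a median or within 1.5 times the count reported, and 7 did not. For a median ratio, this band runs from the median of the members' lower bounds to the median of their upper bounds. It is not a counting interval of the median and is wide, 0.781 to 1.85 at TSS islands. Staying within such a band is therefore a weak check. With overlapping gene bodies kept, the median like-length percentile of H3K14ac over gene bodies went from 7.78 to 12.9, inside a wide band of 3.06 to 22.6. Whether this shift exceeds counting error of the median was not tested. Members below the 10th percentile went from 6 to 4. The count of gene bodies at or above the ratio call went from 3 to 1 relative to the class median ratio, to 0 with a fold of 1.5 and to 10 with the interval above 1 as the rule. At TSS islands a fold of 1.5 gave 1 member above and 1 below, in place of 3 and 2. For the summed Enh and IS entries it gave 1 below in place of 3, and the interval rule gave 1 above in place of 0. Enh or IS entries alone, an alternative chosen after seeing the data, gave median ratios of 0.936 and 0.955. The place of 1 depends on the column totals and on each antibody's enrichment over IgG, not measured here. No paired analysis was possible because the merged columns carry no replicate numbers, and leaving out replicates was not possible for the same reason. Single IS entries hold a median of 13 H3K14ac and 13.5 KAT7 reads, which limits their ratios. Of the ratios of single genes, 2 moved beyond their interval, both relative to the class median: Kmt2a to 1.14 and Kmt2c to 1.02 over gene bodies.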
